A study of Mus musculus with 6 samples.

Results

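Metabotropic glutamate (mGlu) receptors are G protein-coupled receptors for glutamate, the main excitatory transmitter of the cortex. Group II receptors (Grm2 and Grm3) and group III receptors (Grm4, Grm7 and Grm8) couple to Gi/o proteins, inhibit adenylyl cyclase, and in many synapses sit on axon terminals, where they reduce transmitter release. The genes described here are these 5, chosen by name: a probe set was taken if its only annotated gene symbol was one of them. That gave 7 of the 45101 probe sets on the array, 1 each for Grm2, Grm3, Grm4 and Grm8 and 3 for Grm7. At least 1 probe set of each of the 5 genes passed the filter on low values, a mean intensity of 50 in either group, and 5 of the 7 probe sets did. Other members of the family were not analysed here.

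The arrays came from the cortex of untreated transgenic mice of the ES691 line, in which S100a10 regulatory sequence in a bacterial artificial chromosome marks the ribosomes of S100a10-expressing cells. All animals were backcrossed from FVB onto C57BL/6 for 3 to 5 generations, and age, sex and the number of animals per sample are not given in the labels. In translating ribosome affinity purification (TRAP) the marked ribosomes are precipitated with their mRNA, which gave the TRAP group (n = 3). The comparison group (n = 3) is cortex RNA from the same line, called input in sample titles and flow-through elsewhere, and unbound here. The labels present the marked cells as pyramidal cells and the comparison as one of these cells with the cortex. Marker lists, chosen with earlier results of these data known, are counted after the receptors. Of 9 pyramidal markers tested, 3 were higher and 4 lower in TRAP RNA, with a median log2 fold change of -0.54 beside -0.21 for all genes. Meningeal fibroblast markers were higher in 13 of 13 tested. When both group means had to reach 50, 8 were called higher, and the rest had an unbound mean under 50. The identity of the marked cells was not tested. The series text warns that the line also marks some non-neuronal cells. The 3 samples of a group are labelled as biological replicates, and the animals behind them are not named, so each p-value reflects sample-to-sample spread, which may be partly technical.

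S100a10 itself, the driver, was 5.86-fold higher in TRAP RNA (limma adjusted p = 8.4e-05). Across the 12070 genes tested, 23.3% were called higher in TRAP RNA and 45.7% lower at an adjusted p under 0.05, and the median log2 fold change was -0.21. Median intensities were 31.3 to 31.6 on TRAP arrays and 42.3 to 42.97 on unbound arrays. The same value stood on 2 or more TRAP arrays for 50.4% of probe sets and on 2 or more unbound arrays for 59.3%, which makes the spread within those groups small. In these bulk samples, fewer cells of a type and less RNA per cell cannot be told apart.

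Of the 5 receptor genes, 1 (Grm2) was called higher in TRAP RNA and 1 (Grm8) lower, against the 23.3% and 45.7% of all genes. Grm3, Grm4 and Grm7 were not called in this fit, which took no account of the replicate numbers. The median log2 fold change of the 5 genes was -0.28 beside -0.21 for all genes. Each gene had 1 probe set above the limit, and a fit on all 22591 such probe sets gave the same calls, where 20.6% of probe sets were called higher and 47.7% lower.

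**Figure D1:**
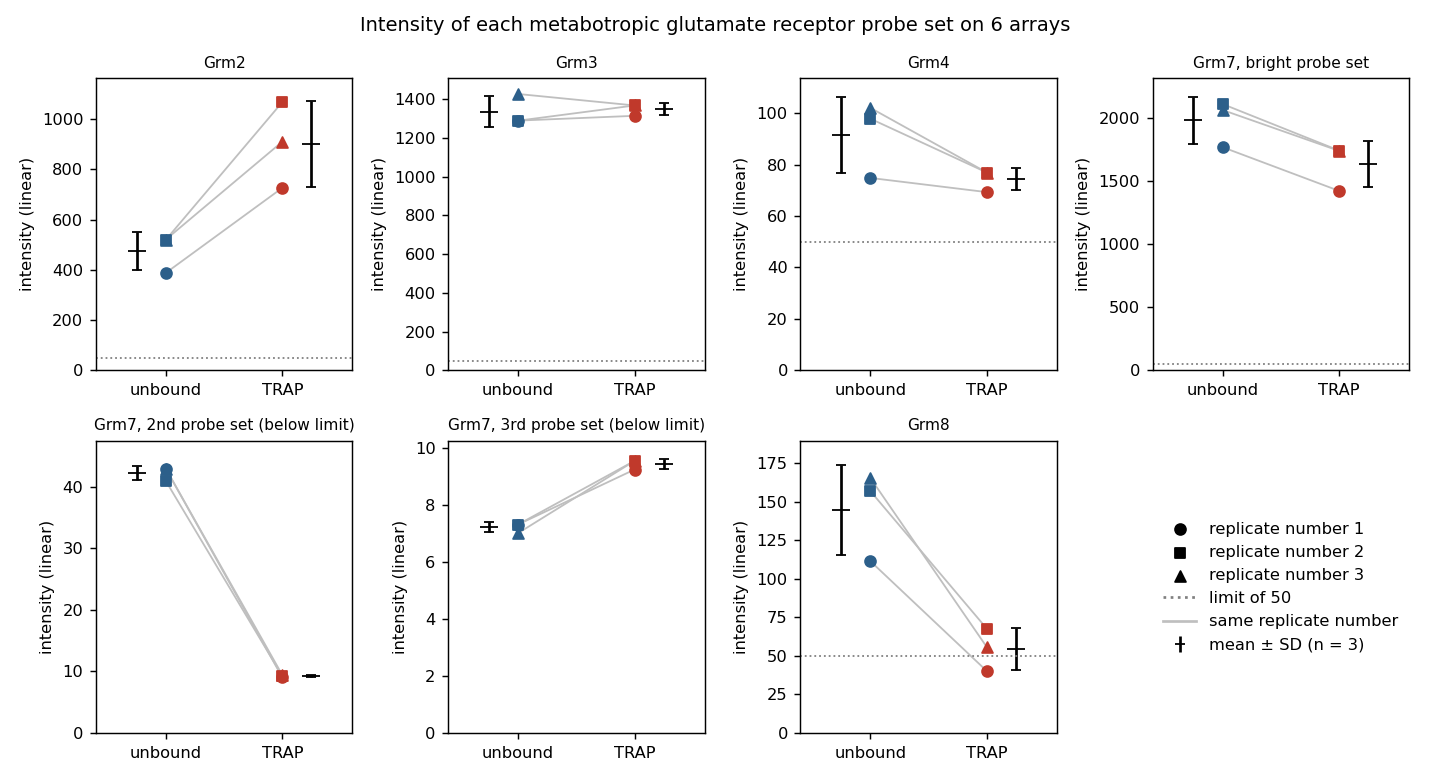
Intensity on a linear scale for each of the 7 probe sets, with 3 unbound arrays (blue) and 3 TRAP arrays (red); grey lines join arrays of the same replicate number and bars give the mean ± SD (n = 3). Grm2 was higher and Grm8 lower on every TRAP array than on every unbound array, and Grm3 overlapped. The Grm7 probe sets other than the bright one lay below the limit of 50. A dotted line marks that limit in the panels whose axis reaches it.

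Grm2 encodes mGlu2, a group II receptor of glutamatergic axons. Its intensity was 727, 1068 and 911 on the TRAP arrays and 388, 520 and 521 on the unbound arrays, in the order of replicates 1, 2 and 3. All 3 TRAP values lay above all 3 unbound values, and the first replicate was the lowest in both groups. The means were 902 ± 171 (SD, n = 3) and 476 ± 76.5 (SD, n = 3). The log2 fold change was 0.92 (SE 0.19, 95% confidence interval 0.43 to 1.41), a 1.89-fold difference, with limma adjusted p = 0.0092. Between samples of the same replicate number the log2 difference was 0.91, 1.04 and 0.81. With any 1 array left out it ranged from 0.78 to 1.06 and stayed called. Of all genes tested, 91.8% had a lower log2 fold change. A further probe set, annotated to Grm2 and a second gene and therefore outside the rule, read 12.9 to 13.1 in TRAP RNA and 16.6 to 17.3 in unbound RNA, all under the limit.

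Grm3 encodes mGlu3, the other group II receptor, known from astrocytes as well as neurons. Its TRAP intensities were 1315, 1369 and 1369 and its unbound intensities 1291, 1290 and 1428. The ranges overlapped, and TRAP replicates 2 and 3 held an identical value. The log2 fold change of 0.02 (SE 0.05, 95% confidence interval -0.12 to 0.15) did not pass the test (limma adjusted p = 0.79). Of all genes tested, 64.1% had a lower log2 fold change. The call against 0 depended on the scaling: Grm3 was called higher after quantile normalisation (log2 0.20, adjusted p = 0.038), after centring each array on the genes tested (0.23, adjusted p = 0.025) and after centring on all probe sets (0.45, adjusted p = 0.0011). Under those 3 scalings 34.1%, 34% and 47.7% of all genes were called higher and 32.9%, 33.2% and 22.1% lower. The log2 fold changes of the group II receptors differed by 0.90, with Grm2 above Grm3; this difference was not tested.

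Grm4 encodes mGlu4, a group III receptor best known from cerebellar granule cells. It measured 69.3, 76.9 and 76.9 in TRAP RNA against 74.8, 97.8 and 102 in unbound RNA, close to the limit of 50 on every array. The second TRAP value and the third were identical and lay above the lowest unbound value, so the groups overlapped. The log2 fold change was -0.29 (SE 0.13, 95% confidence interval -0.63 to 0.06), with limma adjusted p = 0.11. Without unbound replicate 1, the lowest of its group, it was -0.43 and called lower (adjusted p = 0.0070). With the replicate number as a block Grm4 was also called lower (limma adjusted p = 0.043).

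Grm7 encodes mGlu7, a low-affinity group III receptor of presynaptic active zones. Its bright probe set gave 1420, 1740 and 1737 on the TRAP arrays and 1767, 2109 and 2061 on the unbound arrays. Every TRAP value lay below every unbound value, by a narrow margin between TRAP replicate 2 and unbound replicate 1. The means were 1633 ± 184 and 1979 ± 185 (SD, n = 3 each). The log2 fold change of -0.28 (SE 0.11, 95% confidence interval -0.57 to 0.01) did not pass the unpaired test (limma adjusted p = 0.079). With the replicate number as a block Grm7 was called lower (limma adjusted p = 0.0063).

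The other Grm7 probe sets disagreed in direction and stayed below the limit in both groups, so no call was made for them. One read 9.02, 9.25 and 9.40 in TRAP RNA against 42.97, 40.96 and 42.97 in unbound RNA, a log2 difference of -2.20 with every value under the limit. The third read 9.23, 9.53 and 9.53 against 7.30, 7.30 and 7.0, a log2 difference of 0.39. Of the probe sets that failed the filter, the first of these came nearest to it with an unbound mean of 42.3, and of those that passed, Grm4 had the lowest deciding mean, at 91.6.

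Grm8 encodes mGlu8, a group III receptor that acts as a presynaptic autoreceptor. It read 40.1, 67.6 and 55.6 on the TRAP arrays and 111, 157 and 165 on the unbound arrays. The highest TRAP value was below the lowest unbound value, and TRAP replicate 1 fell under the limit of 50. Means were 54.4 ± 13.8 and 145 ± 29.0 (SD, n = 3 each). The log2 fold change was -1.42 (SE 0.25, 95% confidence interval -2.07 to -0.77), a 2.68-fold lower level in TRAP RNA with limma adjusted p = 0.0051. With values under 50 raised to 50 the difference was 2.49-fold. Same-numbered samples differed by -1.47, -1.21 and -1.57 on the log2 scale. With any 1 array left out the log2 fold change ranged from -1.60 to -1.22 and stayed called. Of all genes, 6.4% had a lower log2 fold change, against 44.5% for Grm4 and 45.1% for Grm7. The probe set is of the type marked _a_at, designed to match several transcripts of a gene, and no plain probe set with the Grm8 symbol alone was present among the 7.

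Samples of the same replicate number deviated together in the 2 groups, and a fit with the replicate number as a block changed 2 of the 5 calls. In that paired fit Grm7 (log2 -0.28, SE 0.03, limma adjusted p = 0.0063) and Grm4 (-0.29, SE 0.08, adjusted p = 0.043) were called lower beside Grm8, giving 3 lower and 1 higher. The same fit called 24.8% of all genes higher and 48% lower. The log2 difference between same-numbered samples was -0.31, -0.28 and -0.25 for Grm7 and -0.11, -0.35 and -0.41 for Grm4. These decreases were close to the shift of all genes, which was -0.21. Grm4 turned to 0.02 after quantile normalisation and to 0.15 after centring on all probe sets, and Grm7 to 0.16 after the latter. The array medians that centring on all probe sets makes equal lay under the limit of 50 on every array. Grm2 stayed called higher and Grm8 called lower under each of the 3 scalings, with log2 fold changes of 1.13 to 1.35 and -1.21 to -0.98.

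**Figure D2:**
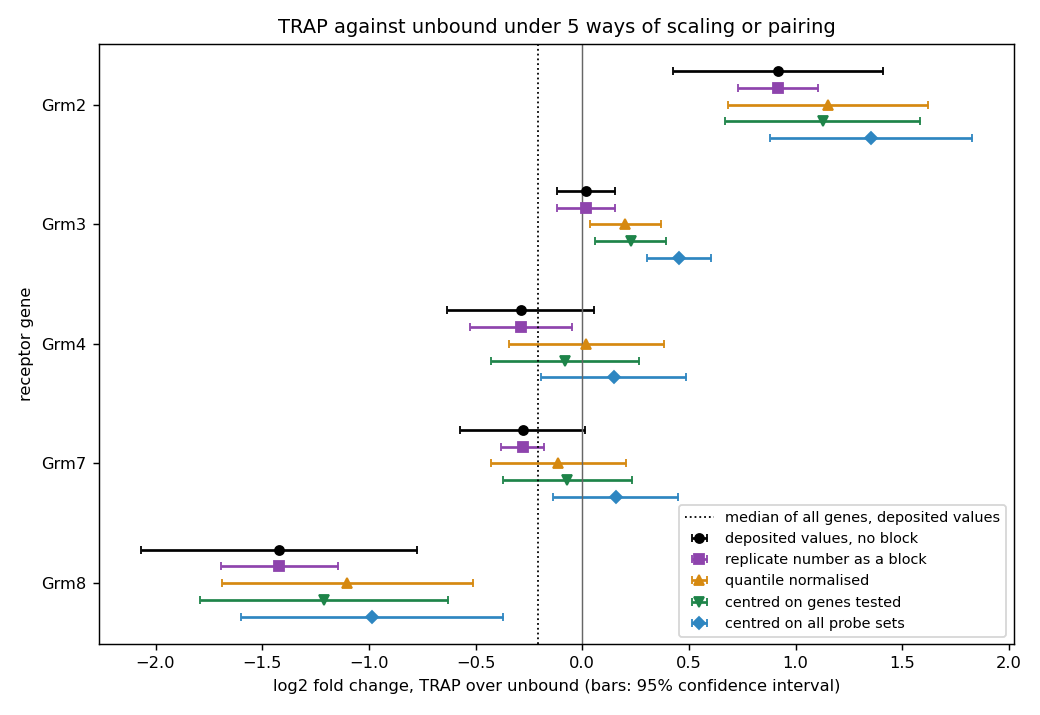
Log2 fold change of TRAP over unbound RNA with its 95% confidence interval for the 5 receptor genes, from the deposited values, with the replicate number as a block, and after 3 scalings; the dotted line marks the median of all genes at -0.21. Grm2 lies above 0 and Grm8 below 0 in all 5 versions, while the sign of Grm4 and Grm7 and the call of Grm3 depend on the scaling.

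The counts of the pathway lists are read against the 23.3% of all genes called higher and the 45.7% called lower, and the Gi/o, effector and binding partner lists held about that share of lower genes. Among Gi/o proteins, the heterotrimers that carry group II and III signals, 1 of 14 tested genes was higher and 6 lower (median log2 fold change -0.24). In the paired fit 2 were higher and 7 lower, against 24.8% and 48% of all genes. Gnai2, an inhibitory alpha subunit, was 1.34-fold higher (limma adjusted p = 0.0085). The gamma subunit genes Gng7, abundant in striatal neurons, and Gng2 were 4.10-fold and 2.07-fold lower. These 3 calls held under each of the 3 scalings. After centring on all probe sets the list gave 5 higher and 3 lower, against 47.7% and 22.1% of all genes. After quantile normalisation it gave 4 higher and 5 lower, against 34.1% and 32.9% of all genes.

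The 14 tested effectors were adenylyl cyclases, Kir3 potassium channels, presynaptic calcium channels and protein kinase A subunits. In the limma fit 7 were lower and 0 higher, against 45.7% and 23.3% of all genes, with a median of -0.36. Of the 14, 10 were lower and 0 higher in the paired fit, against 48% and 24.8% of all genes. After centring on all probe sets 3 were higher and 2 lower, against 47.7% and 22.1% of all genes. Adcy9, an adenylyl cyclase, was 2.29-fold lower (adjusted p = 0.0021). Cacna1e, the R-type calcium channel gene, was 1.90-fold lower (adjusted p = 0.013), a call lost after centring on all probe sets (adjusted p = 0.078).

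RGS proteins speed the shut-off of Gi/o signals. The 13 tested held 3 called higher and 7 called lower, at a median log2 fold change of -0.67. Rgs16 and Rgs10 were 1.58-fold and 1.56-fold higher, and Rgs9, a striatal RGS gene, and Rgs20 were 4.82-fold and 2.46-fold lower. After centring on all probe sets the list gave 5 higher and 6 lower, against 47.7% and 22.1% of all genes.

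Proteins that bind mGlu receptors or end their signal were higher in 2 of 18 tested genes and lower in 9 (median -0.26). After centring on all probe sets 8 were higher and 4 lower, against 47.7% and 22.1% of all genes. Grk3, a receptor kinase, measured 816 ± 0.846 (SD, n = 3) in TRAP RNA against 2775 ± 706 and was 3.32-fold lower (adjusted p = 0.0011). TRAP replicates 2 and 3 held an identical Grk3 value, which makes that TRAP SD small. Its probe set without repeated values was also called lower (log2 -1.63). Elfn1, a postsynaptic adhesion protein that recruits group III receptors across the synapse, measured 58.7, 90.1 and 65.0 against 115, 227 and 174. It was 2.37-fold lower without overlap (adjusted p = 0.016). The Elfn1 call was lost without TRAP replicate 1, TRAP replicate 3 or unbound replicate 3 (adjusted p = 0.057, 0.056 and 0.056) and after centring on all probe sets (0.052). Pick1, the scaffold of the mGlu7 tail, read 955 on each of the 3 TRAP arrays and 1047, 824 and 983 on the unbound arrays, and was not called (log2 0.01, adjusted p = 0.91). It was named after its values were seen. Homer3, a postsynaptic scaffold, was 1.66-fold higher, but not called with values under 50 raised to 50 (log2 0.11). It passed the filter only through the TRAP group, with means of 53.1 against 31.8. Requiring 50 in both group means left it out, and 1 gene of the list was then higher and 9 lower. Arrb2, an arrestin, was 1.22-fold higher, a call lost when plain probe sets were preferred (log2 -0.04) or probe sets were averaged (log2 0.12).

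Genes of glutamate supply and clearance were lower in 10 of 15 tested and higher in 2, with a median of -0.30. The count was 5 lower and 2 higher after quantile normalisation, against 32.9% and 34.1% of all genes. It was 3 lower and 4 higher after centring on all probe sets, against 22.1% and 47.7% of all genes. The uptake transporter genes Slc1a2, mainly astrocytic, and Slc1a1, mainly neuronal, were 2.93-fold and 2.55-fold lower (adjusted p = 7.1e-04 and 6.4e-04). Slc7a11, the cystine-glutamate exchanger, read 466, 149 and 380 in TRAP RNA against 27.4, 26.9 and 32.9, a 10.3-fold difference, or 5.96-fold with values under 50 raised to 50. Slc38a2, a glutamine transporter, was 1.75-fold higher, a call absent from its probe set without repeated values (log2 -0.29, adjusted p = 0.34). N-acetylaspartylglutamate is a peptide transmitter known as an agonist of mGlu3, and both tested genes for its synthetases were lower. Of the 4 genes listed for its metabolism, 2 passed the filter. Rimklb was 2.95-fold lower (adjusted p = 4.4e-06) and Rimkla 2.15-fold lower (adjusted p = 5.9e-05), and both stayed called lower under the 3 scalings. Rimklb read 205, 218 and 205 in TRAP RNA against an identical 619 on each of the 3 unbound arrays. Rimkla read an identical 176 on TRAP replicates 1 and 3. Such repeats make the spread small, and neither gene was tested without probe sets holding repeated values.

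**Figure D3:**
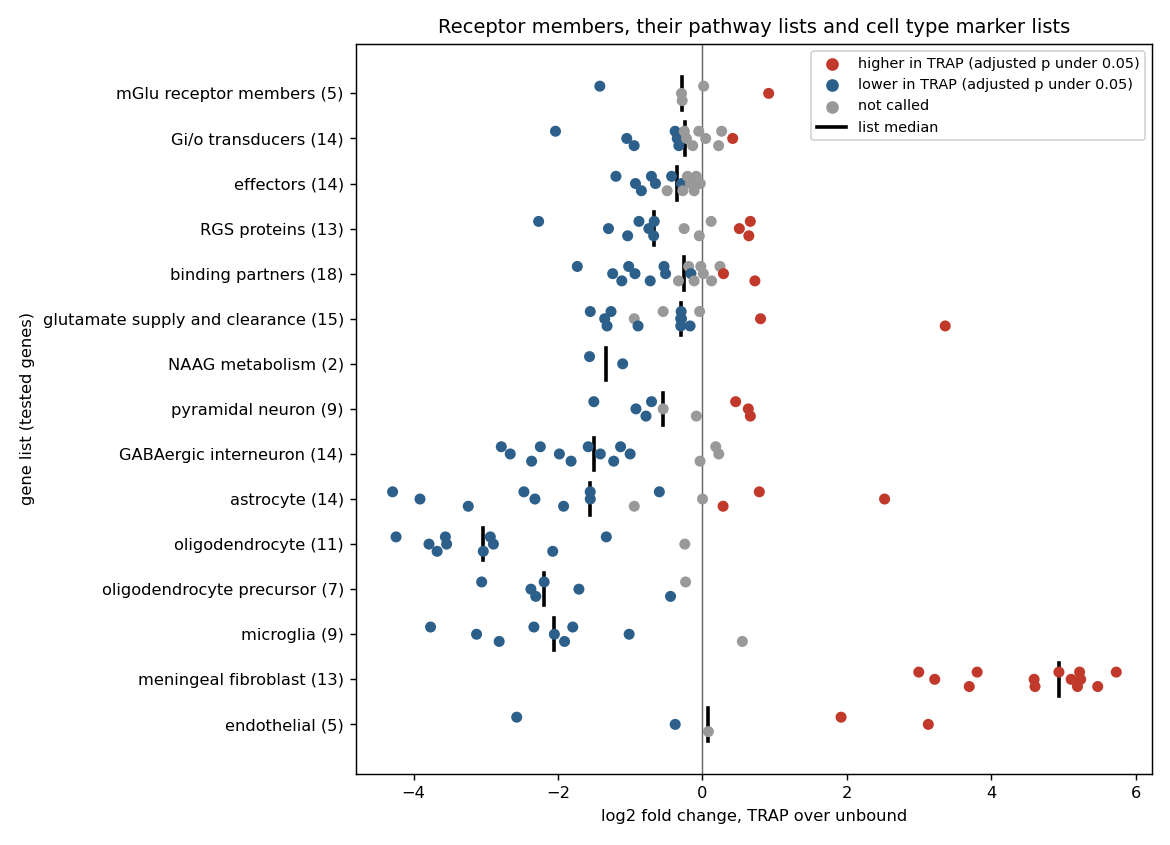
Log2 fold change of TRAP over unbound RNA for the 5 receptor genes, 6 pathway lists and 8 cell type marker lists, 1 point per tested gene, coloured by call, with black bars at list medians. The receptor genes spread from -1.42 to 0.92, while the meningeal fibroblast markers all lie above 0.

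Markers of cell types that the cortex or the precipitate could hold were read against the same shares of all genes. GABAergic interneuron markers were lower in 11 of 14 tested and higher in 0 (median -1.50), with a summed intensity of 24112 to 30096 on TRAP arrays and 51304 to 54984 on unbound arrays. After centring on all probe sets 11 of the 14 were lower and 3 higher, against 22.1% and 47.7% of all genes. Pvalb, a calcium buffer of fast-spiking interneurons, was 6.89-fold lower. Astrocyte markers were lower in 9 of 14 and higher in 3 (median -1.55), with sums of 21172 to 25600 against 33430 to 44072, and the connexin gene Gjb6 was 5.75-fold higher. Gfap, an intermediate filament gene, lay under the limit on the TRAP arrays (14.3 to 25.5); raising values under 50 to 50 made its difference 7.66-fold, still lower. Pyramidal neuron markers were lower in 4 of 9 and higher in 3 (median -0.54), with sums of 17299 to 17846 against 18856 to 20840. After centring on all probe sets 3 of the 9 were lower and 4 higher, against 22.1% and 47.7% of all genes. Nrgn, a postsynaptic calmodulin-binding protein, was 1.58-fold higher and Camk2a, a synaptic kinase, 2.84-fold lower.

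Meningeal fibroblast markers were higher in 13 of 13 tested, with sums of 43121 to 48293 against 1957 to 2412. Some of them passed the filter only through the TRAP group. When both group means had to reach 50, 8 were called higher, and the rest had an unbound mean under 50. With values under 50 raised to 50, 13 were higher. Foxd1, a forkhead factor, was 53.1-fold higher. Oligodendrocyte markers were lower in 10 of 11 (sums 9264 to 14934 against 54102 to 60065, led by Ermn at 18.9-fold), precursor markers in 6 of 7 (1177 to 1625 against 7045 to 7916, led by Olig1 at 8.32-fold) and microglial markers in 8 of 9 (546 to 794 against 1694 to 2246). Some microglial markers passed the filter only through the unbound group. When both group means had to reach 50, 3 were called lower, and the other markers called lower had a TRAP mean under 50. P2ry12, a microglial receptor, lay under the limit on the TRAP arrays (7.25 to 7.67). Raising its values under 50 to 50 made the difference 2.02-fold, still lower. Of 9 endothelial markers listed, 5 were tested, with 2 higher and 2 lower (sums 4214 to 4593 against 843 to 935). Most of the TRAP sum was Itm2a, 8.74-fold higher, with means of 4088 and 467. The other means were 142 against 37.6 for Abcb1a, 69.3 against 65.3 for Slco1a4, 53.1 against 68.6 for Cldn5 and 42.0 against 253 for Slco1c1. With values under 50 raised to 50, Slco1c1 was 4.99-fold lower. Abcb1a passed the filter only through the TRAP group and Slco1c1 only through the unbound group. When both group means had to reach 50, 1 endothelial marker was higher and 1 lower. Under each of the 3 scalings 3 of the 5 endothelial markers were higher and 1 lower. Of all genes, 34.1% were higher and 32.9% lower after quantile normalisation. The shares were 34% and 33.2% after centring on the genes tested, and 47.7% and 22.1% after centring on all probe sets. No marker was at 0. The part of these cell types in the values of Grm2, Grm3 and Grm8 was not tested.

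Over the 6 arrays, the genes whose log2 intensity followed each receptor most closely were taken as a description, from both groups together, so that any gene with a like group difference scores highly. The genes were picked from the 12070 tested, and such a search over 6 arrays can give high correlations by itself. For Grm2 they were Cpq (Pearson r = 0.998, 1.90 higher on the log2 scale) and Fkbp5 (r = 0.996, 1.32 higher). Grm8 was matched most closely by Scg3 (r = 0.999, log2 -1.46) and Kcnk3 (r = 0.999, log2 -0.85). Grm3 was followed by Hhatl (r = 0.987) and Cort (r = 0.955), Grm4 by Icmt (r = 0.995) and Syp (r = 0.991), and Grm7 by App (r = 0.995) and Clcc1 (r = 0.991). Of these last 6 genes, App was called lower (log2 -0.28, limma adjusted p = 0.046), also with the replicate number as a block (limma adjusted p = 0.0057). The App call was lost under each of the 3 scalings, with the sign turned after centring on all probe sets (0.16). It was also lost without any 1 array other than unbound replicate 1.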

How the data were processed

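RNA from 3 TRAP and 3 unbound samples was amplified with a 2-cycle kit from 15 ng and hybridised to Affymetrix arrays, per the labels' protocols. The authors deposited linear-scale intensities made with GCRMA, per the submitters' processing notes; its version, and whether all arrays were processed in a single run, are not given in the sources used here. There were 0 unused columns.

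Values were taken to log2 without a pseudocount. After removal of 64 control probe sets, 34945 had 1 gene symbol in the platform annotation, of which 34741 matched a RefSeq gene (GRCm38.p6 table, names only). Probe sets with a group mean of at least 50 in either group were kept (22591, with or without a symbol), and a gene was represented by its probe set with the highest mean log2 value, giving 12070 genes. The series text recommends this limit; requiring it in both groups is another reading of that text and was tried. The moderated test of limma 3.58.1 (R 4.3.3) compared the groups with no other term in the model, two-sided, and every adjusted p is a Benjamini-Hochberg value over all genes of that fit. The code was tested on simulated data. The correlation of deviations from group means between same-numbered samples was 0.494, 0.452 and 0.362 across genes. Between others it was from -0.371 to -0.0419, values partly fixed in advance because deviations cancel out within a group. The replicate number was taken to pair the samples. The main fit left this pairing out, and the fit with the replicate number as a block is given beside it. A two-sided permutation test of 3 against 3 samples cannot give a p under 0.1 and was not used.

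The members, lists, alternatives and the rule for named genes were chosen with earlier results of these data known. Named were every member and probe set, up to 2 called genes with the largest rise and 2 with the largest fall per pathway list, up to 1 each per marker list, and the 2 genes with the highest Pearson r per member, clone names left out; Pick1 was added after its values were seen.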

Additional observations from a re-analysis of the deposited data

How the results depend on the processing

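Each result was recomputed with no filter, with both group means at 50 or more, with values under 50 raised to 50, with 3 scalings, with other choices of probe set, without probe sets holding repeated values (which left out Grm3 and Grm4), with a replicate block and without each array. The scaling that centres on the genes tested was added after the data were seen. Grm2 stayed higher and Grm8 lower, both called, in all 16 alternatives, with log2 fold changes of 0.78 to 1.35 and -1.60 to -0.98. The number of receptor genes called higher was 2 instead of 1 after each of the 3 scalings, through Grm3. The number called lower was 3 instead of 1 with the replicate block, through Grm4 and Grm7. Leaving out 1 array gave 1 to 2 lower, the second being Grm4 without unbound replicate 1, and 1 higher. Signs turned for Grm4 after quantile normalisation (0.019) and, after centring on all probe sets, for Grm4 (0.15) and Grm7 (0.16). Grm3 turned without unbound replicate 1 (-0.0070) and without unbound replicate 2 (-0.0073); leaving out 1 array gave -0.0073 to 0.066 for it. Of 444 recomputed counts of the pathway and marker lists, 396 stayed within 1.5 times the main count, where 0 against 0 was taken as within. The N-acetylaspartylglutamate and endothelial lists gave no count without probe sets holding repeated values, as no gene was left. Over all genes, 23.3% higher and 45.7% lower became 34.1% and 32.9% after quantile normalisation, 34% and 33.2% after centring on genes tested, and 47.7% and 22.1% after centring on all probe sets, with median log2 fold changes of 0.0040, 0.0043 and 0.23. Where a value changed, the cause was not tested. Grm8 on TRAP replicate 1 and the low Grm7 probe sets on every array lay under the limit of 50.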
